A study of Mus musculus with 8 samples.

Results

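The matrix metalloproteinases (MMPs) and the tissue inhibitors of metalloproteinases (TIMPs) were followed in bone marrow-derived macrophages (BMDMs) of control (LysM) and myeloid-specific KLF2 knockout (K2KO) mice. The set is a list of gene names and holds 10 of the 23761 genes listed. Of the 10, 7 are MMPs (Mmp8, Mmp9, Mmp12, Mmp13, Mmp14, Mmp19 and Mmp27) and 3 are TIMPs (Timp1, Timp2 and Timp3). The set leaves out 15 other listed MMP and TIMP genes and was chosen with earlier results of these data known. LysM mice were LysM Cre/Cre and K2KO mice were LysM Cre/Cre KLF2 flox/flox, so both genotypes carried Cre at the lysozyme M gene, which is active in macrophages and neutrophils alike. There were 4 libraries of each genotype, from mice aged 3 months, and the column names mark all of them as vehicle. Marrow was grown in medium conditioned by L929 fibroblasts and total RNA was sequenced. LysM0 to LysM3 and K2KO0 to K2KO3 stand for the libraries, after the numbers in the column names, which give the genotype but not the mouse.

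MMPs are zinc-dependent proteases that cut collagens, elastin, laminins and other proteins outside the cell. Most are secreted as proenzymes whose propeptide covers the zinc, and they become active once plasmin, furin or another MMP removes it. TIMPs bind the active site and block it. Macrophages use these enzymes to migrate, to remodel tissue and to process chemokines, and the balance of proteases and inhibitors is a long-standing measure of their capacity to break down matrix.

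Levels are given as FPKM, which scale fragments to transcript length and to the fragments mapped in a library, so that genes can be compared with each other. Differences are given as log2 fold changes of FPKM + 0.1, K2KO minus LysM, from limma fitted to the 10920 genes whose mean FPKM was 1 or more. SE is the standard error of a log2 fold change. A gene was called when its Benjamini-Hochberg adjusted p was under 0.05 and its absolute log2 fold change over 0.26. Klf2, the targeted gene, averaged 58.7 ± 12.7 FPKM in LysM and 51.4 ± 9.22 FPKM in K2KO (SD, n = 4 each), and its log2 fold change of -0.18 was not larger than the spread between libraries (limma adjusted p = 0.460). Since Klf2 does not separate the genotypes, directions are given for the libraries labelled K2KO. The number of fragments behind an FPKM is unknown. Steps among the low values placed the depth of the libraries at 0.886 (K2KO2) to 1.44 (K2KO1) times that of LysM0.

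Macrophage elastase (Mmp12) made up at least 84.1% of the summed FPKM of the MMPs in each library, and Timp2 at least 95.6% of that of the TIMPs. Mmp27 and Mmp19 were higher in the libraries labelled K2KO, with no overlap between the groups. The collagenases Mmp8 and Mmp13, the gelatinase Mmp9, the membrane-anchored Mmp14, Mmp12, Timp1 and Timp2 did not pass the test. Timp3 was too low to be tested, although its 4 libraries labelled K2KO were above its 4 LysM libraries. Of the 10 genes 9 were tested and 2 were called, which is 22.2% of those tested. Over all tested genes 18.4% were called and 9.84% were called higher, so the share is near the background. Of the 9, 0 were called lower, where the background is 8.61%. Of the 7 MMPs 6 had the higher mean log2 value in the libraries labelled K2KO, as did 51.8% of all tested genes, and both tested TIMPs had the lower. The GC content of the longest transcript was 52.8% to 55.2% for Mmp9, Timp1 and Timp2, which were lower. It was 40.3% to 49.0% for Mmp12, Mmp13, Mmp27, Mmp8 and Mmp19 and 54.3% for Mmp14, which were higher. Over all tested genes the log2 fold change fell with GC content (Spearman's rho = -0.40), and its part in these directions was not tested. The median log2 fold change of the 9 genes was 0.19, beside 0.01 over all tested genes.

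**Figure D1:**
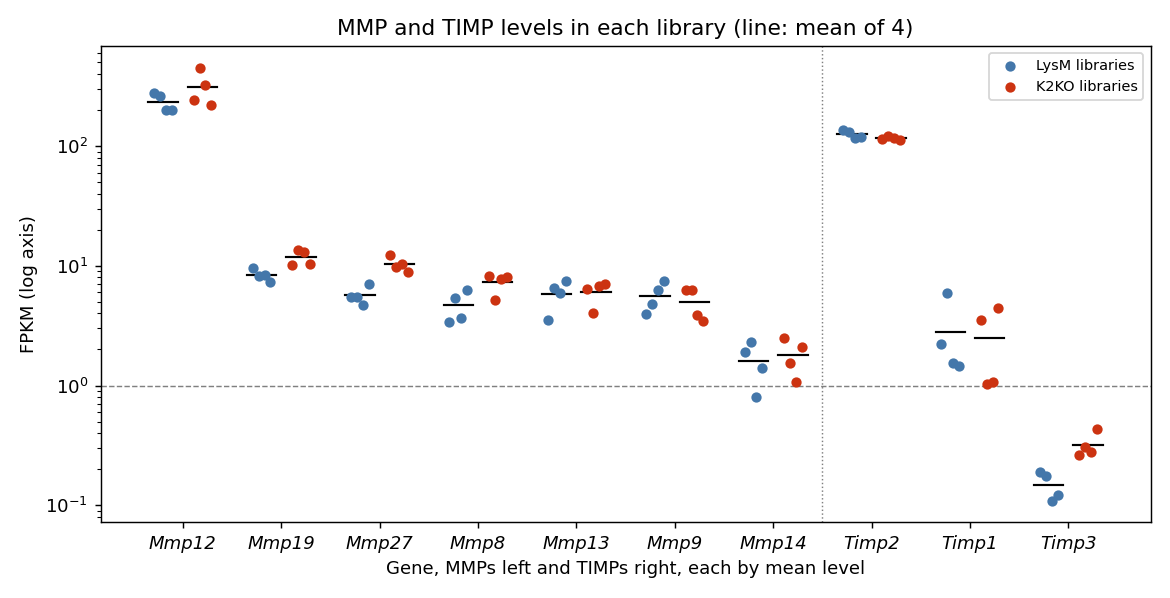
FPKM (log axis) of each gene in the 4 LysM libraries (blue) and the 4 K2KO libraries (red), with the group mean as a black line, the filter of 1 FPKM as a dashed line and MMPs to the left of TIMPs. Mmp12 and Timp2 lie above 100 FPKM in every library, Timp3 lies below 1 FPKM in every library, and the groups are apart for Mmp19, Mmp27 and Timp3.

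In the LysM libraries the order of mean levels was Mmp12 (234 FPKM), Timp2 (125), Mmp19 (8.38), Mmp13 (5.84), Mmp27 (5.69), Mmp9 (5.64), Mmp8 (4.70), Timp1 (2.78), Mmp14 (1.60) and Timp3 (0.149). The ranges of Mmp12, Timp2 and Mmp19 did not meet. From Mmp19 down to Mmp14 each gene overlapped with the next in the order, and Timp3 stood below all. In the libraries labelled K2KO the order was Mmp12 (310 FPKM), Timp2 (116), Mmp19 (11.8), Mmp27 (10.3), Mmp8 (7.31), Mmp13 (6.07), Mmp9 (4.97), Timp1 (2.50), Mmp14 (1.80) and Timp3 (0.320). There Mmp27 overlapped with Mmp19 above it but not with Mmp8 below it, whereas in the LysM libraries its range lay among those of Mmp13, Mmp9 and Mmp8.

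Mmp27, a little-studied MMP of the stromelysin kind, showed the largest difference among the 9 tested genes. It lies on the plus strand of chromosome 9 (GRCm38 chr9:7571396-7581885). Its level was 5.53, 5.48, 4.75 and 7.004 FPKM in LysM0 to LysM3 and 12.2, 9.71, 10.4 and 8.93 FPKM in K2KO0 to K2KO3. Every library labelled K2KO was above every LysM library, and the lowest of the former, K2KO3, exceeded the highest of the latter, LysM3. The group levels were 5.69 ± 0.946 and 10.3 ± 1.42 FPKM (SD, n = 4 each), a ratio of 1.81. This was a log2 fold change of 0.85 (SE 0.13, 95% interval 0.56 to 1.14, limma adjusted p = 0.00807). The exact two-sided permutation test gave p = 0.0286, the smallest that 4 against 4 libraries allow. Mmp27 was called in 8 of 8 fits that left out a library.

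Mmp19 (RASI-1), a secreted MMP that cleaves basement membrane proteins, was the other called gene. It lies on the plus strand of chromosome 10 (GRCm38 chr10:128790910-128800824). Its level was 9.59, 8.25, 8.40 and 7.26 FPKM in LysM0 to LysM3 and 10.2, 13.6, 13.0 and 10.3 FPKM in K2KO0 to K2KO3. The groups did not overlap, but K2KO0 and K2KO3 stood only a little above LysM0. The group levels were 8.38 ± 0.956 and 11.8 ± 1.78 FPKM (SD, n = 4 each), a ratio of 1.41, and the log2 fold change was 0.49 (SE 0.12, 95% interval 0.22 to 0.75, limma adjusted p = 0.0247). Mmp19 was called in 3 of 8 fits that left out a library. It was not called without K2KO1, K2KO2, LysM1, LysM2 or LysM3 (limma adjusted p = 0.0667, 0.0732, 0.0672, 0.0583 and 0.0892), and its log2 fold change lay between 0.41 and 0.55 over the 8 fits. The last 789 bases that Mmp19 shares with the gene Tmem198b on the opposite strand, and the antisense gene Gm47093, make its FPKM uncertain where strand was not used in counting. The library kit named in the methods keeps strand, and whether counting used it is not given in the sources used here. Tmem198b was at 8.68 ± 0.477 and 9.10 ± 0.297 FPKM (SD, n = 4 each), and its log2 fold change was 0.07 (limma adjusted p = 0.409).

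Over all tested genes the groups did not overlap in 23.1%, and for 12.9% they did not overlap with the libraries labelled K2KO higher. Among the 9 tested genes of the set the groups did not overlap in 2, and in both the libraries labelled K2KO were higher.

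**Figure D2:**
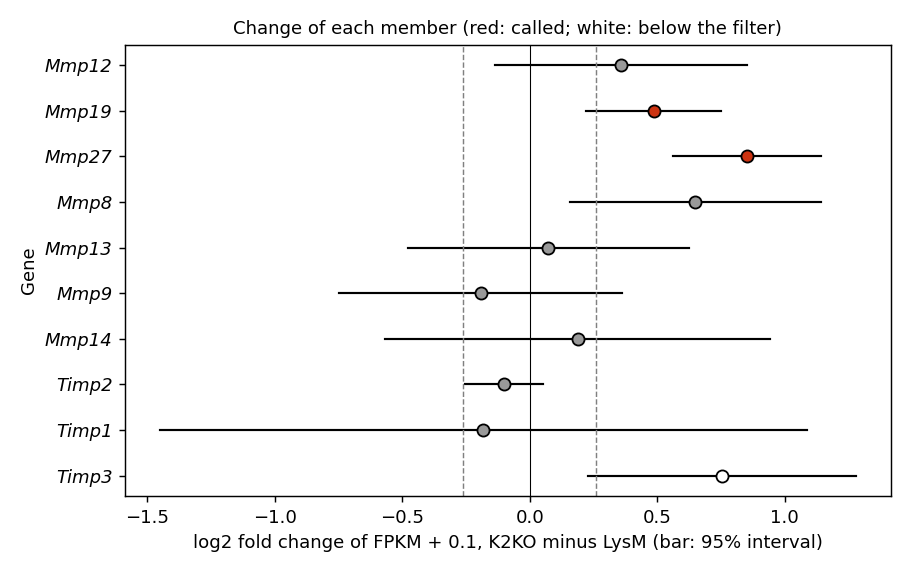
Log2 fold change of FPKM + 0.1 (K2KO minus LysM) of each gene with its 95% interval, red where called, grey where tested and not called, and white for Timp3, which was fitted only with the filter lowered to 0.1 FPKM. Dashed lines mark 0.26 in either direction; Mmp27 (0.85) and Mmp19 (0.49) are the called genes and the interval of Timp1 is the widest.

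Mmp12, the macrophage elastase, was the most abundant MMP in each of the 8 libraries and stood at rank 289 of the 10920 tested genes by mean level. It lies on the plus strand of chromosome 9 (GRCm38 chr9:7344381-7369499). Its level was 276, 260, 201 and 200 FPKM in LysM0 to LysM3 and 242, 452, 325 and 219 FPKM in K2KO0 to K2KO3. K2KO1 and K2KO2 were above all LysM libraries, while K2KO0 and K2KO3 fell within the LysM range. The group levels were 234 ± 39.5 and 310 ± 106 FPKM (SD, n = 4 each). The log2 fold change of 0.36 (SE 0.22, 95% interval -0.14 to 0.85) did not pass the test (limma adjusted p = 0.257). It was 0.16 without K2KO1, 0.15 with the correction for GC content and length and 0.54 with quantile normalization, and was called in none of these fits (limma adjusted p = 0.552, 0.638 and 0.140). The coefficient of variation was 34.1% in the libraries labelled K2KO and 16.8% in the LysM libraries.

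The sum of markers of osteoclasts, which arise from the same precursors and also degrade matrix, was highest in the library where Mmp12 was highest. Of 8 such markers 5 were tested and limma called 0, beside 18.4% of all tested genes. Of the 5, 1 had an unadjusted p under 0.05 and ordinary least squares called 0. Calcr, the calcitonin receptor, was listed at 0 in all libraries. The sum of the 8 markers was 175, 182, 144 and 149 FPKM in LysM0 to LysM3 and 155, 260, 192 and 142 FPKM in K2KO0 to K2KO3. The most abundant of them was Atp6v0d2, a proton pump subunit, at 99.0, 80.1, 59.5 and 59.9 FPKM in LysM0 to LysM3 and 81.0, 174, 109 and 73.9 FPKM in K2KO0 to K2KO3. Ctsk, the collagen-degrading cathepsin K and the marker at an unadjusted p under 0.05, averaged 42.5 ± 8.07 in LysM against 31.5 ± 5.29 FPKM in K2KO (SD, n = 4 each, log2 fold change -0.42, limma adjusted p = 0.0850), and Dcstamp, which is needed for cell fusion, averaged 2.52 ± 0.962 against 1.77 ± 0.455 FPKM (SD, n = 4 each, log2 fold change -0.45, limma adjusted p = 0.246). Neither was called, and neither was highest in K2KO1. Acp5, the tartrate-resistant acid phosphatase, and Nfatc1, a transcription factor of osteoclast formation, were highest in K2KO1 at 39.2 and 12.9 FPKM, as was Atp6v0d2, and were not called either. K2KO1, K2KO2 and LysM0 were the 3 highest libraries for both Mmp12 and Atp6v0d2, and the part of such cells in the level of Mmp12 was not tested. In bulk RNA, fewer cells of a type and less RNA per cell cannot be told apart.

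Mmp8 and Mmp13 are collagenases that cut fibrillar collagens, and Mmp8 is best known from neutrophil granules. Mmp8 (GRCm38 chr9:7558456-7568485, plus strand) was at 3.42, 5.43, 3.64 and 6.33 FPKM in LysM0 to LysM3 and 8.20, 5.17, 7.72 and 8.13 FPKM in K2KO0 to K2KO3. Only K2KO1 fell inside the LysM range, and the other 3 libraries labelled K2KO were above it. Its log2 fold change was 0.65 (SE 0.22, 95% interval 0.16 to 1.14) and did not pass the test over all genes (limma adjusted p = 0.0626; exact two-sided permutation test, p = 0.0857). With each library scaled to its upper quartile, Mmp8 was called (log2 fold change 0.69, limma adjusted p = 0.0446). That was the only 1 of 12 alternatives with all libraries to call it. It was called in 0 of 8 fits that left out a library (limma adjusted p from 0.0548 to 0.151). With the correction for GC content and length its log2 fold change was 0.56 (limma adjusted p = 0.135).

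Mmp13 (GRCm38 chr9:7272514-7283331, plus strand) was at 3.53, 6.49, 5.88 and 7.48 FPKM in LysM0 to LysM3 and 6.44, 4.00, 6.83 and 7.03 FPKM in K2KO0 to K2KO3. The lowest library of each group lay well below its other 3, and the ranges of the groups largely coincided. The log2 fold change was 0.07 (95% interval -0.48 to 0.62, limma adjusted p = 0.850), and with the correction for GC content and length it was -0.047.

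Of 12 markers of neutrophils and their precursors all were listed and 9 were tested, and 1 was called, beside 18.4% of all tested genes. This was Camp, an antimicrobial peptide of neutrophil granules, which was lower in the libraries labelled K2KO, at 6.40 ± 2.53 against 13.6 ± 2.21 FPKM (SD, n = 4 each, log2 fold change -1.14, limma adjusted p = 0.0178). Camp was not called without K2KO2, LysM1 or LysM3 (limma adjusted p = 0.0585, 0.0543 and 0.0738). The sum of the 12 was 213, 295, 258 and 344 FPKM in LysM0 to LysM3 and 211, 320, 257 and 338 FPKM in K2KO0 to K2KO3, with S100a9 as the most abundant and none at 0 in all libraries. Within LysM the 4 libraries ranked in this sum as they did for Mmp8. In K2KO they did not, and K2KO0, lowest in this sum, was the highest library for Mmp8. The part of such cells in the level of Mmp8 was not tested.

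Mmp9, the gelatinase B that cleaves denatured and basement membrane collagen, lies on the plus strand of chromosome 2 (GRCm38 chr2:164940780-164955850). It was at 3.99, 4.82, 6.34 and 7.42 FPKM in LysM0 to LysM3 and 6.25, 6.33, 3.86 and 3.43 FPKM in K2KO0 to K2KO3. The groups overlapped almost fully. Mmp9 had a log2 fold change of -0.19 (95% interval -0.75 to 0.36, limma adjusted p = 0.590), so these libraries leave room for a change in either direction. With 1 library left out, the log2 fold change lay between -0.34 and -0.037.

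Mmp14 (MT1-MMP), a membrane-anchored collagenase that activates pro-Mmp2, lies on the plus strand of chromosome 14 (GRCm38 chr14:54431612-54445364). It was the lowest of the 7 MMPs, at 1.91, 2.29, 0.806 and 1.39 FPKM in LysM0 to LysM3 and 2.49, 1.56, 1.06 and 2.10 FPKM in K2KO0 to K2KO3. Both groups spread over more than their difference, and the log2 fold change was 0.19 (SE 0.34, 95% interval -0.57 to 0.94, limma adjusted p = 0.704).

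The sum of the 7 MMPs was 231 to 304 FPKM in LysM and 259 to 493 FPKM in K2KO, and Mmp12 made up 84.5% to 90.8% and 84.1% to 91.8% of it. Without Mmp12 the sum was 27.97 to 36.9 FPKM (mean 31.9 ± 3.89, SD, n = 4) and 39.9 to 45.9 FPKM (mean 42.3 ± 2.72, SD, n = 4). The sum of the 3 TIMPs was 117 to 138 FPKM and 117 to 123 FPKM, of which Timp2 made up at least 95.6%. The ratio of the MMP sum to the TIMP sum was 1.97 to 2.20 in LysM and 2.21 to 4.00 in K2KO, the lowest of the latter nearly level with the highest of the former. These ratios follow Mmp12 and Timp2, neither of which passed the test, and are given as a description.

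Timp2, which inhibits MMPs and also docks pro-Mmp2 to Mmp14, was the steadiest gene of the set. It lies on the minus strand of chromosome 11 (GRCm38 chr11:118301069-118355740). Its level was 136, 131, 116 and 118 FPKM in LysM0 to LysM3 and 114, 122, 117 and 112 FPKM in K2KO0 to K2KO3. Its libraries varied by 7.66% and 3.55% (coefficient of variation in LysM and K2KO), and the groups overlapped. The log2 fold change was -0.10 (SE 0.07) with a 95% interval of -0.26 to 0.05, which is narrow beside those of the other genes (limma adjusted p = 0.302). With quantile normalization it was 0.040. The small gene Cep295nl lies inside Timp2 on the same strand, and their reads may be shared.

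Timp1, an inducible inhibitor of most secreted MMPs, was the most variable gene of the set. It lies on the plus strand of the X chromosome (GRCm38 chrX:20870166-20874735), inside Syn1 on the opposite strand. Its level was 2.23, 5.89, 1.54 and 1.46 FPKM in LysM0 to LysM3 and 3.51, 1.03, 1.08 and 4.402 FPKM in K2KO0 to K2KO3. LysM1, K2KO3 and K2KO0 stood above the other 5 libraries, whatever the genotype, and the highest library of a group was 4.03 (LysM) and 4.28 (K2KO) times its lowest. The log2 fold change was -0.18 (SE 0.56, 95% interval -1.45 to 1.09, limma adjusted p = 0.835), so the design can tell little of Timp1.

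The sum of 8 fibroblast markers was highest in the same 3 libraries, although among single markers LysM1 was one of the 3 highest libraries only for Dcn and Col3a1. This sum was 0.550, 1.42, 0.353 and 0.258 FPKM in LysM0 to LysM3 and 3.56, 0.980, 0.631 and 2.06 FPKM in K2KO0 to K2KO3. All 8 were listed, none reached the filter of 1 FPKM and none was at 0 in all libraries, and Dcn, a collagen-binding proteoglycan, was the most abundant at 0.0229 to 0.821 FPKM in LysM and 0.278 to 1.54 FPKM in K2KO. The 3 libraries were also the highest for Mmp14 and for Mmp3, and the part of fibroblasts in these levels was not tested. Without these 3 libraries, a choice made after seeing the data, the log2 fold change of Mmp27 was 0.81 (limma adjusted p = 0.0680) and that of Mmp19 was 0.67 (limma adjusted p = 0.0663), with 3 LysM and 2 K2KO libraries left and 38 genes called in all.

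**Figure D3:**
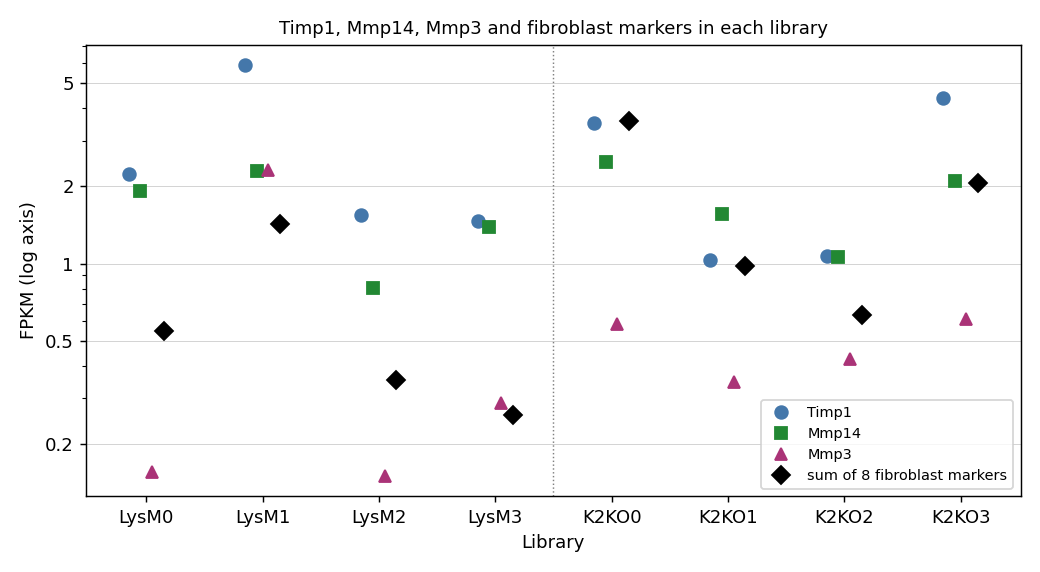
FPKM (log axis) of Timp1 (circles), Mmp14 (squares), Mmp3 (triangles) and the sum of 8 fibroblast markers (diamonds) in each library, with LysM left and K2KO right of the dotted line. LysM1, K2KO0 and K2KO3 are the 3 highest libraries for each of the 4 quantities.

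Timp3, the inhibitor that binds to the matrix and also blocks several ADAM proteases, had a mean FPKM under 1 and was given no call. It lies on the plus strand of chromosome 10 (GRCm38 chr10:86300372-86349506). Its level was 0.190, 0.174, 0.109 and 0.122 FPKM in LysM0 to LysM3 and 0.265, 0.309, 0.276 and 0.432 FPKM in K2KO0 to K2KO3. All 4 libraries labelled K2KO were above all LysM libraries, at 0.320 ± 0.0765 against 0.149 ± 0.0393 FPKM (SD, n = 4 each). The difference on the log2 scale was 0.75 (exact two-sided permutation test, p = 0.0286, the smallest possible). With the filter lowered to a mean of 0.1 FPKM, its limma adjusted p was 0.0597 (95% interval 0.23 to 1.28). At that filter 12.7% of 14521 genes were called and the groups did not overlap in 19.8%. Timp3 lies inside Syn3 on the opposite strand and shares 1733 bases with it, and Syn3 was listed at 0 in 7 libraries and at 0.0203 FPKM in LysM3.

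Mmp13, Mmp12, Mmp8 and Mmp27 lie in this order in one cluster of MMP genes on chromosome 9, 309 kb from the start of Mmp13 to the end of Mmp27. Mmp8 ends 2.91 kb before Mmp27 begins. RefSeq promoter windows on GRCm38.p6, from 250 bases before to 50 bases after a start, were matched for 8 of the 10 genes by symbol, in 9 windows, with 2 starts for Mmp12. Mmp9 and the called gene Mmp19 were not matched and not searched. The 120 bases before each start of the 4 cluster genes are shown because these neighbours hold the called gene Mmp27 and its nearest relative in position, Mmp8. Each is 5′ to 3′ on the plus strand, and capitals mark TGANTCA, the site of the Fos and Jun dimer AP-1, a well-known regulator of MMP genes.
Mmp13 (chr9:7272394-7272513): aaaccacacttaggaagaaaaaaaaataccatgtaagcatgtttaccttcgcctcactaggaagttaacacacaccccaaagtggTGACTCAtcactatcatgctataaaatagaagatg
Mmp12, start 1 (chr9:7344277-7344396): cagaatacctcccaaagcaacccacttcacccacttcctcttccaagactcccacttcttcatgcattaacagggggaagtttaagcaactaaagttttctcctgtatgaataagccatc
Mmp12, start 2 (chr9:7347254-7347373): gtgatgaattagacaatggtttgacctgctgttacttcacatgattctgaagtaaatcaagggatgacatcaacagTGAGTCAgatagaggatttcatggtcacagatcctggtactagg
Mmp8 (chr9:7558309-7558428): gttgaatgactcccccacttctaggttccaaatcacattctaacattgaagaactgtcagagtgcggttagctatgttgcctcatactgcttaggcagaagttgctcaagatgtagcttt
Mmp27 (chr9:7571276-7571395): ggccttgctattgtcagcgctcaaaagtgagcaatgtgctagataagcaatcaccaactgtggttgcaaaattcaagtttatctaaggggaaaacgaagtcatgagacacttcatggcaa

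The AP-1 letters begin 35 bases before the start of Mmp13 and 44 bases before start 2 of Mmp12, and the window at start 1 of Mmp12 holds none. They were in 22.2% of the 9 windows, and in 7.81% of all 32851 promoter windows. AGGAAG, the PEA3 site of ETS factors, was in 66.7% of the 9 windows and 35.4% of all windows. CCACCC, the CACCC box that KLF factors bind, was in the windows of Mmp14, Timp1, Timp2 and Timp3, or 44.4% of the 9 windows beside 31.5% of all windows. Both strands were searched, and no match overlapped another. The window of Mmp27 held none of the 3 motifs, and these letters are a description of the windows only.

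In and around the cluster, from Dcun1d5 to Yap1, a window chosen after the values were seen, 14 genes were listed and 9 were tested, and the values are a description. Dcun1d5, whose start lies 88.0 kb before that of Mmp13, had a log2 fold change of -0.01 (limma adjusted p = 0.905). Tmem123, a membrane mucin gene that begins 182 kb past the end of Mmp27, was at 23.9 ± 2.08 and 32.1 ± 1.86 FPKM (SD, n = 4 each) with no overlap, a log2 fold change of 0.43 (SE 0.07, limma adjusted p = 0.0120). Beyond it the inhibitors of apoptosis Birc2 and Birc3 had log2 fold changes of -0.04 and 0.14 (limma adjusted p = 0.794 and 0.193). The pseudogene Gm10709 was listed at 0 in all LysM libraries and at 23.2 to 34.4 FPKM in those labelled K2KO. Its transcript is 99.2% identical to that of the ribosomal protein gene Rpl29 over 480 aligned bases, and Rpl29 was listed at 0 to 0.253 FPKM and 337 to 435 FPKM in the same groups. Reads can be shared between them, so the value of Gm10709 is uncertain.

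**Figure D4:**
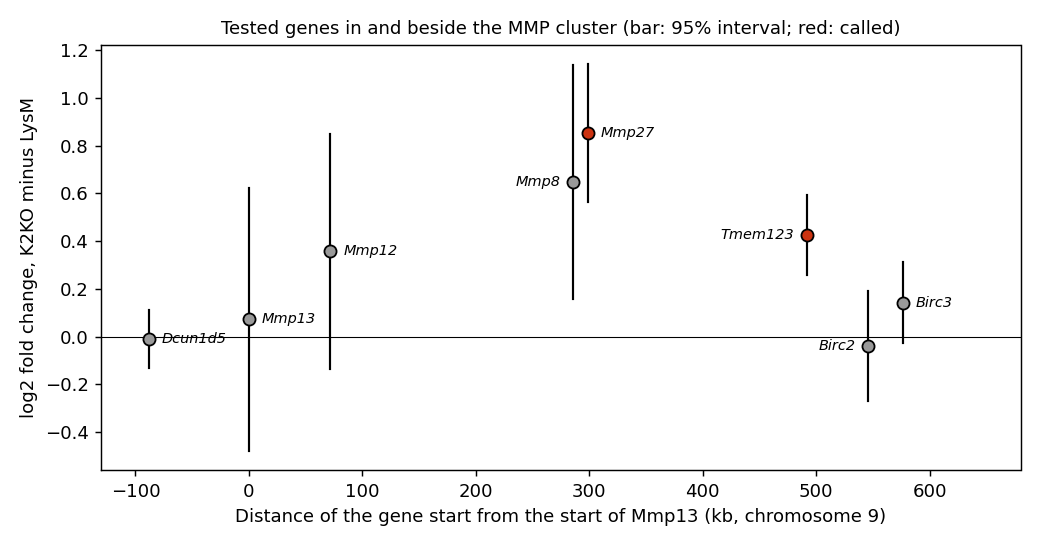
Log2 fold change (K2KO minus LysM, with 95% interval) of the tested genes in and beside the MMP cluster against the distance of their start from that of Mmp13 in kb, red where called. Gm10709 is left out; Mmp8 and Mmp27 have the highest values (0.65 and 0.85), and Dcun1d5 and Birc2 lie near 0.

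With values centred within each genotype, 2 pairs of genes varied together and against each other over the 8 libraries. Mmp8 was most like Mmp13 (Pearson's r = 0.88, on the log2 scale), and Mmp12 was most like Mmp19 (r = 0.87), while r was -0.78 between Mmp8 and Mmp19 and -0.72 between Mmp12 and Mmp13. Timp1 was most like Mmp14 (r = 0.79), Timp2 was most like Mmp12 (r = 0.78), Mmp27 was most like Mmp8 (r = 0.58) and Mmp9 was most like Mmp27 (r = 0.47). These 8 points share their libraries, depth and base composition, and the values are a description. In K2KO1 the 2 pairs were farthest apart, with the highest Mmp12 and Mmp19 of all libraries and the lowest Mmp8 and Mmp13 of its group.

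Of the other MMP genes 14 were listed and none reached the filter. Mmp3 (stromelysin-1) was at 0.156, 2.32, 0.150 and 0.287 FPKM in LysM0 to LysM3 and 0.585, 0.347, 0.426 and 0.608 FPKM in K2KO0 to K2KO3, high in LysM1 alone. Mmp2 (gelatinase A), the enzyme that Mmp14 activates, did not pass 0.138 FPKM in any library. Mmp10, Mmp11, Mmp23 and Mmp28 stayed under 0.4 FPKM, and Mmp7, Mmp17 and Mmp24 under 0.08 FPKM. Mmp25 and Mmp15, both membrane-anchored, were at 0 to 0.0366 FPKM and 0 to 0.0127 FPKM in LysM, and 0.0673 to 0.184 FPKM and 0.0231 to 0.0927 FPKM in K2KO, and were not tested. Mmp16, Mmp20 and Mmp21 were listed at 0 throughout, and Mmp1a and Mmp1b were not analysed here. Of the other inhibitors, Timp4 and A2m were above 0 in 1 library each, and Reck and Tfpi2 stayed under 0.17 FPKM. Such values are not read as absence, since Gapdh, which all cells use, averaged 0.179 and 0.356 FPKM in these libraries.

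Of the proteins that activate or bind MMPs, 2 of 9 tested genes were called, both higher in the libraries labelled K2KO, where the share over all tested genes was 18.4% called and 9.84% called higher, so the count is near the background. Ordinary least squares called 1 of the 9. Thbs1 (thrombospondin-1), which binds Mmp2 and Mmp9, was at 37.6, 58.7, 30.9 and 45.3 FPKM in LysM0 to LysM3 and 104, 50.1, 92.5 and 86.7 FPKM in K2KO0 to K2KO3. K2KO1 was the only library of its group within the LysM range, as it was for Mmp8, and the log2 fold change was 0.94 (SE 0.25, limma adjusted p = 0.0320). Of the 8 fits without a library it was called in 2, those without K2KO1 or LysM1 (limma adjusted p from 0.0252 to 0.0930 over the 8), and it was not called with the GC and length correction (0.85, limma adjusted p = 0.0686). Cd44, the hyaluronan receptor that holds Mmp9 and Mmp14 at the cell surface, was at 43.1 ± 2.11 and 52.5 ± 1.78 FPKM (SD, n = 4 each) without overlap (log2 fold change 0.28, SE 0.06, limma adjusted p = 0.0159), and was not called without K2KO2 (limma adjusted p = 0.0514) or LysM3 (log2 fold change 0.25), nor with the GC and length correction (0.12, limma adjusted p = 0.186). Cd63, a tetraspanin that binds Timp1, was the most abundant of the list at 903 and 833 FPKM (limma adjusted p = 0.284). The median log2 fold change of the 9 was -0.03.

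In the plasminogen system, which makes the plasmin that activates several pro-MMPs, 2 of 6 tested genes were called, both lower in the libraries labelled K2KO, beside 8.61% called lower over all tested genes. Ordinary least squares called 0 of the 6, and 2 had an unadjusted p under 0.05. They are the subunits of a plasminogen-binding complex on the cell surface. Anxa2, the most abundant of the list, fell from 572 ± 43.7 to 405 ± 52.3 FPKM (SD, n = 4 each, log2 fold change -0.50, SE 0.11, limma adjusted p = 0.0172), and was not called without K2KO2, LysM1 or LysM3 (limma adjusted p = 0.0507, 0.0543 and 0.0661). S100a10 fell from 245 ± 25.4 to 193 ± 14.5 FPKM (SD, n = 4 each, log2 fold change -0.34, SE 0.09, limma adjusted p = 0.0329), and was called in 2 of 8 fits without a library, those without K2KO3 or LysM0 (limma adjusted p from 0.0143 to 0.0997 over the 8). S100a10 was also not called with quantile normalization (-0.14, limma adjusted p = 0.186) or the GC and length correction (-0.24, limma adjusted p = 0.0748). The groups did not overlap for either gene. Plau (urokinase) and its receptor Plaur had log2 fold changes of 0.23 and -0.28 and were not called (limma adjusted p = 0.372 and 0.447). Plg, plasminogen itself, was not analysed here, and the median of the 6 was -0.13.

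Of the ADAM and ADAMTS proteases and the ADAM17 partner Rhbdf2, 8 were tested, and in the libraries labelled K2KO 1 was called higher and 2 lower, beside 9.84% and 8.61% over all tested genes. Ordinary least squares called 2 of the 8. Adam9, a membrane sheddase, rose from 20.7 ± 1.34 to 26.7 ± 1.42 FPKM (SD, n = 4 each, log2 fold change 0.37, SE 0.07, limma adjusted p = 0.0123). Adam15 fell from 107 ± 4.66 to 82.5 ± 4.58 FPKM (SD, n = 4 each, log2 fold change -0.38, SE 0.06, limma adjusted p = 0.0105). Both were called in 8 of 8 fits without a library, and the groups did not overlap, but with quantile normalization Adam15 was at -0.25, under the fold threshold. Rhbdf2, which brings the TNF-releasing Adam17 to the surface, was lower by a small margin (log2 fold change -0.27, limma adjusted p = 0.0416) and was called in 1 of 8 such fits, that without K2KO3 (limma adjusted p from 0.0176 to 0.0951 over the 8). With all libraries, Rhbdf2 was called in 2 of 12 alternatives. Among the others were the GC and length correction (-0.18, limma adjusted p = 0.0752) and quantile normalization (-0.25, limma adjusted p = 0.0731). Adam17 itself was not called (log2 fold change 0.10, limma adjusted p = 0.356), nor was Adam8, the most abundant at 283 and 328 FPKM (limma adjusted p = 0.156). Adam10 had a limma adjusted p of 0.0415 with a log2 fold change of 0.22, under the fold threshold.

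Among the AP-1 and ETS factors, 1 of 9 tested genes was called, a share under the 18.4% over all tested genes. Ordinary least squares called 0 of the 9, and 1 had an unadjusted p under 0.05. Jund, a Jun family member, was at 439, 450, 322 and 434 FPKM in LysM0 to LysM3 and 247, 247, 247 and 373 FPKM in K2KO0 to K2KO3. K2KO3 was above LysM2, so the groups overlapped, and the log2 fold change was -0.57 (SE 0.16, limma adjusted p = 0.0352), called in 2 of 8 fits without a library, those without K2KO3 or LysM2 (limma adjusted p from 0.00659 to 0.113 over the 8). Jund was not called with the GC and length correction (-0.24, limma adjusted p = 0.0959) or quantile normalization (-0.39, limma adjusted p = 0.102). Junb, the most abundant, was at 719 and 633 FPKM (limma adjusted p = 0.179), and the median of the 9 was -0.03. Fos and Jun had log2 fold changes of -0.09 and -0.05.

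Of 16 matrix proteins only Spp1 (osteopontin) and Lamc1 (a laminin chain) were tested. Limma and ordinary least squares called 0 of the 2, beside 18.4% called by limma over all tested genes, and 0 had an unadjusted p under 0.05. Spp1, which MMPs cleave, was the most abundant at 1012 and 1179 FPKM (limma adjusted p = 0.167). Eln, the elastin that Mmp12 degrades, was listed at 0 in all libraries.

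**Figure D5:**
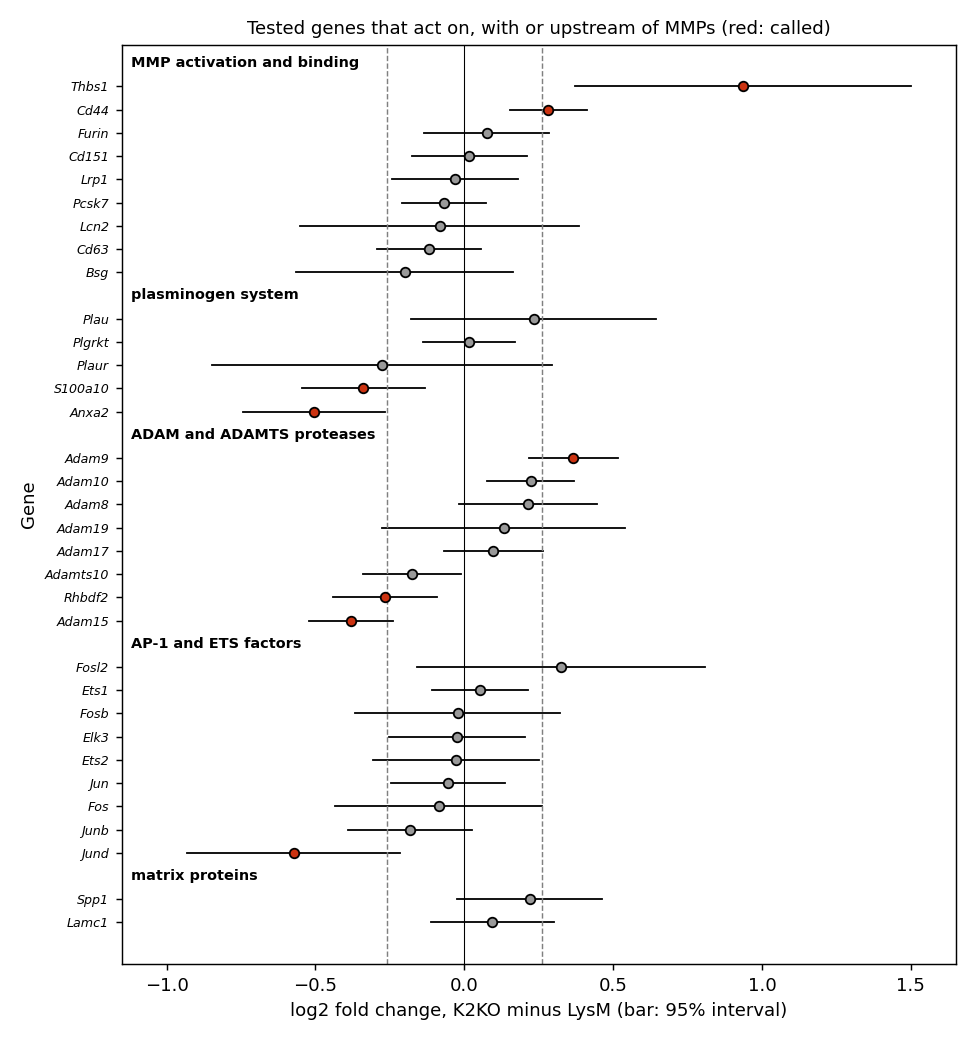
Log2 fold change (K2KO minus LysM, with 95% interval) of the tested genes of each list, red where called, with dashed lines at 0.26 in either direction. Thbs1, Cd44 and Adam9 lie to the right and Anxa2, S100a10, Adam15, Rhbdf2 and Jund to the left, and 1 tested gene is not shown.

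Macrophage markers were abundant in all 8 libraries. The sum of 7 markers was 3910 to 4119 FPKM in LysM and 3667 to 3814 FPKM in K2KO, with Cd68, a lysosomal protein, as the most abundant and none at 0. The total over all genes was 497253 to 551608 FPKM in LysM and 448235 to 501965 FPKM in K2KO, so that these markers made up 0.723% to 0.811% and 0.757% to 0.830% of it. Cd14, the lipopolysaccharide co-receptor, averaged 1028 ± 56.7 in LysM against 829 ± 118 FPKM in K2KO without overlap (SD, n = 4 each, log2 fold change -0.32, limma adjusted p = 0.0630) and was not called. Fcgr1, Itgam and Cd68 had log2 fold changes of -0.28, -0.22 and -0.04 and were not called (limma adjusted p = 0.416, 0.325 and 0.714), nor were Adgre1 (433 and 440 FPKM) and Csf1r (524 and 526 FPKM), at log2 fold changes of 0.020 and 0.0019 (limma adjusted p = 0.928 and 0.989). The part of macrophage content in the values above was not tested. Of the 7 markers 1 was called, where 18.4% of all tested genes were called and 9.84% were called higher. This was Mertk, a receptor for apoptotic cells, which was higher in K2KO (14.2 ± 1.68 against 18.3 ± 1.4998 FPKM, SD, n = 4 each, log2 fold change 0.36, limma adjusted p = 0.0285). It was called in 2 of 8 fits without a library, those without K2KO3 or LysM0 (limma adjusted p from 0.0119 to 0.0938 over the 8), and not with the GC and length correction (0.29, limma adjusted p = 0.0588). Of 6 dendritic cell markers 2 were tested and of 4 B cell markers 1 was tested. Limma and ordinary least squares called 0 of these 3, beside 18.4% called by limma over all tested genes, with 0 at an unadjusted p under 0.05.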

How the data were processed

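The authors deposited FPKM (fragments scaled to transcript length and to the mapped fragments of a library) for 8 libraries in one table without pooling. The genome was mm10. The methods name TopHat2 as the aligner and Cufflinks for FPKM, whereas the submitters' processing notes name STAR and Cuffdiff. Which of these made the deposited FPKM is not known, and versions are not given in the sources used here. The methods and the labels also name different RNA isolation kits. All columns were mapped to a genotype. Genes were matched by symbol (a symbol listed more than once was taken from its row with the highest mean), and 23645 of 23761 were matched to GENCODE M21 (GRCm38) for positions, transcript length and GC content. Reads shared with other genes were searched with blastn 2.17.0 (at least 95% identity over 200 bases).

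FPKM were compared as log2(FPKM + 0.1), which understates the change of low genes, with limma 3.58.1 in R 4.3.3 (intensity trend, no covariate, mean FPKM of at least 1, Benjamini-Hochberg over 10920 genes). Single genes were also tested by permuting the libraries exactly (two-sided, 35 splits). Depth is unknown, and only relative depth was read from values under 0.3 FPKM. The procedure was tested on simulated data with independent noise, in which 200 of 10920 genes were changed by a log2 fold change of 1. It recovered 86% of these, with 3 false calls among 175. That change is larger than any among the 9 tested genes of the set, and effects shared between genes were not simulated. The genes and lists were chosen with earlier results of these data known. The named genes are the 10 members, Klf2, the other MMP and TIMP genes, the called genes (up to 4) and the most abundant gene of each list, the most abundant marker and those at 0, and the most similar member. Other genes named were chosen after their values were seen. Alternatives were another pseudocount (1 or 0.01), filter (0.1 or none), scaling (quantile or upper quartile), no intensity trend, ordinary least squares, an absolute log2 fold change over 1, a local regression on GC content and length (span 0.3), a replicate block, and each library left out. Labels show one library for each of 4 mice per genotype. The spread between libraries holds that between mice together with that of culture and library preparation, which cannot be told apart here. A planned search of protein sequences was not run, and 1 tested gene of the lists is not reported here.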

Additional observations from a re-analysis of the deposited data

Results flagged for a closer look

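In 92 groups of 4 libraries over 46 of the genes named in the text, 5 had a library farther from the other 3 than Dixon's 95% limit, where chance gives 4.6. Other named genes were not in this count. One of them, Csf1r, was at 547 FPKM in LysM3, with 515 to 517 FPKM in the other LysM libraries. Mmp8 was at 5.17 FPKM in K2KO1, while the other 3 libraries labelled K2KO were at 7.72 to 8.20 FPKM. Mmp3 was at 2.32 FPKM in LysM1, while the other 3 LysM libraries were at 0.150 to 0.287 FPKM. Cd63 was at 736 FPKM in K2KO0, below the 861 to 869 FPKM of the rest of its group. Jund stood apart in both groups, at 322 FPKM in LysM2 against 434 to 450 FPKM in the other LysM libraries, and at 373 FPKM in K2KO3 against 247 FPKM in each of K2KO0, K2KO1 and K2KO2.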

How the results depend on the processing

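Of the 10 genes, 2 were called, and of all genes 2014, and of the lists around MMPs 8. With an absolute log2 fold change over 1 these counts were 0, 110 and 0. Without a filter they were 1, 483 and 3, and with ordinary least squares 1, 746 and 3. The GC and length correction gave 2 of the 10 genes, 989 of all genes and 3 of the lists. Leaving out 1 library gave 1 to 2 of the 10 genes, 337 (without LysM3) to 2837 (without K2KO3) of all genes and 2 (without K2KO2 or LysM3) to 7 of the lists; without K2KO0, K2KO1, K2KO2, LysM1 or LysM2 the number of all genes called was 706, 726, 496, 736 or 1030. Without LysM1, K2KO0 and K2KO3, chosen after seeing the data, the counts were 0, 38 and 0, and Mmp12 moved to 0.78 (limma adjusted p = 0.0838). With upper-quartile scaling 64.1% of calls were higher, against 53.3%. The cause of these shifts was not tested. Across tested genes the log2 fold change fell with GC content (Spearman's rho = -0.40 over 10899 genes, which are not independent).

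Mmp27 was called in 11 of 12 alternatives with all libraries (0.76 to 0.90), the exception being the fold change over 1, and Mmp19 in 8 of 12. Log2 fold changes that changed sign were those of Klf2 (0.048 with the GC and length correction), Mmp13 (-0.047 with that correction, -0.039 without LysM1, K2KO0 and K2KO3, and -0.15 to 0.26 with 1 library left out), Mmp14 (-0.0092 without those 3 libraries, and -0.084 to 0.40 with 1 left out), Timp1 (-0.54 to 0.25 with 1 left out) and Timp2 (0.040 with quantile normalization). None of these 5 genes was called in any of these fits. The log2 fold change of Klf2 lay between -0.31 and -0.07 with 1 library left out. For Timp3, fitted at a mean FPKM of at least 0.1, the limma adjusted p was 0.0536 to 0.116 with 1 library left out.

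Libraries with the same number in both genotypes did not vary together (r = -0.07, 0.02, 0.07 and -0.06 over 10920 genes). Between libraries with unlike numbers r lay between -0.14 and 0.18. No pairing by number was seen, but so few pairs cannot exclude it. With the number as a replicate block, 2 of the 10 genes, 2057 of all genes and 7 of the lists were called, Thbs1 being lost (limma adjusted p = 0.0723). With the replicate block and the GC and length correction the counts were 1, 923 and 3, Klf2 was at 0.048, Mmp13 at -0.047 and Mmp19 was not called (limma adjusted p = 0.0586).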

Other observations

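Fn1, the fibronectin that several MMPs cleave, fell outside the filter and the rule for named genes and was chosen after its values were seen. It was at 1.02, 2.15, 1.49 and 0.950 FPKM in LysM0 to LysM3 and 0.740, 0.468, 0.412 and 0.495 FPKM in K2KO0 to K2KO3, without overlap. At a mean FPKM of at least 0.1, its log2 fold change was -1.21 (limma adjusted p = 0.0256), and 12.7% of the genes fitted there were called. Col1a1, Col1a2 and Col3a1, chains of the fibrillar collagens that Mmp8, Mmp13 and Mmp14 cut, were under 1 FPKM in every library and highest in K2KO0, where the sum of the 8 fibroblast markers, which include these 3 genes, was highest. Serpine2, an inhibitor of plasminogen activators, was at 0.155 to 0.589 FPKM in LysM and 0.643 to 1.12 FPKM in K2KO, without overlap and under the filter of 1 FPKM, and with the filter lowered to 0.1 FPKM its log2 fold change was 1.198 (limma adjusted p = 0.0383, called). Fosl1, an AP-1 member, was at 0.0595 to 0.155 FPKM and 0.176 to 0.279 FPKM, also without overlap and under the filter. It passed the lowered filter only through the libraries labelled K2KO, so no test is given. Serpine2 and Fosl1 were chosen after their values were seen as well, and the groups did not overlap in 19.8% of the genes kept at the filter of 0.1 FPKM.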
